A study of Mus musculus with 2 samples.

Results

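The STAT genes encode signal transducers and activators of transcription, and 6 of them are described here, Stat2, Stat3, Stat4, Stat5a, Stat5b and Stat6. They were chosen by name, as the rows of the gene tables that carry these symbols, and all 6 had reads in both libraries, out of 16428 genes with a read in at least 1 library. The libraries came from macrophages sorted from C57BL/6J mice with acute myeloid leukaemia driven by the fusion oncogene MLL-AF9, 1 library from bone marrow and 1 from spleen. Each recipient had been given 500000 leukaemia cells with a green fluorescent label, without irradiation, at 6 to 8 weeks of age. The macrophages were collected at day 15, in a model whose mice survived for 25 to 30 days. Both libraries therefore came from leukaemic animals, and healthy mice were not analysed here. How many mice went into a library, and on which markers the cells were sorted, is not stated in the sources used here. The bone marrow library listed 15376 genes with a median of 197 reads, and the spleen library 15550 genes with a median of 167. With 1 library per tissue there was no replicate and no test, and every difference below is a difference between these libraries.

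STAT proteins wait in the cytoplasm until a cytokine binds its receptor. Janus kinases on the receptor then phosphorylate them on a tyrosine, they join into dimers, enter the nucleus and bind DNA near the genes they control. In macrophages Stat2 carries type I interferon signals, Stat3 those of IL-10 and IL-6, Stat5a and Stat5b those of GM-CSF, and Stat6 those of IL-4 and IL-13, while Stat4 is best known from T cells and natural killer cells responding to IL-12. The messenger level of a STAT gene says nothing of how much of its protein is phosphorylated.

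Stat2 was the only one of the 6 genes past 2-fold, and it was higher in the spleen library. Stat4 and Stat6 were higher in spleen by less than 2-fold, Stat3 and Stat5b were nearly level, and Stat5a was slightly higher in bone marrow. Of the 6 genes, 1 passed 2-fold towards spleen, as did 14.6% of the 12970 measured genes, and 0 passed it towards bone marrow, as did 14.1%. In either direction that was 1 of 6 STAT genes beside 28.8% of measured genes, so the count of STAT genes was not above the background. A gene was measured with at least 1 CPM (counts per unit of library size, after scaling with TMM factors) and at least 10 reads in 1 of the libraries, and all 6 STAT genes were. The difference was taken as log2(CPM + 1) in bone marrow minus spleen. It ranged from -1.42 to 0.29 over the 6 genes, with a median of -0.39, beside a median of 0.03 over all measured genes with quartiles of -0.59 and 0.58. Together the 6 genes made up 824 CPM in bone marrow against 1090 CPM in spleen, a 1.32-fold higher sum in spleen with a 95% interval of 1.28 to 1.36. Without Stat2 the sum of the other 5 was 1.20-fold higher (1.16 to 1.24). These and the following intervals are exact and cover counting error only. Reads may copy the same molecule if they were amplified without a molecular identifier, and no tissue had a second library.

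**Figure D1:**
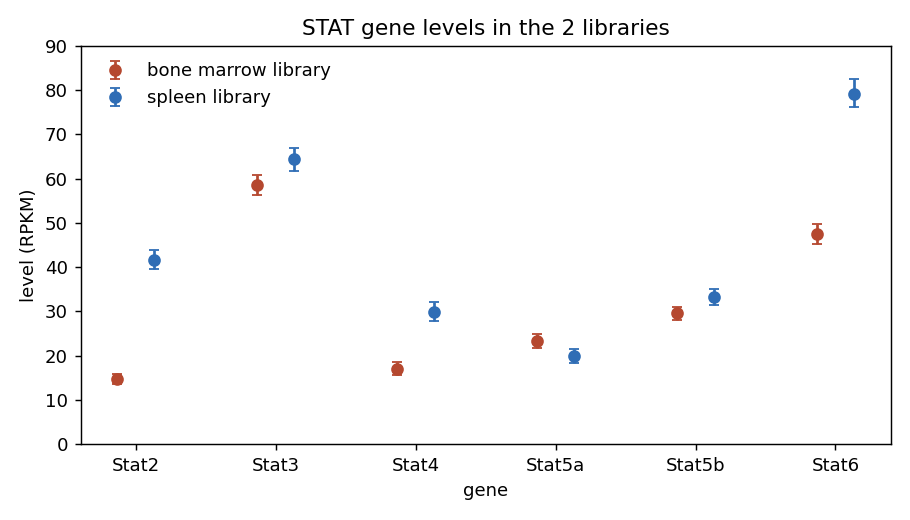
Level of each STAT gene in RPKM (vertical axis, linear from 0) in the bone marrow library (red) and the spleen library (blue). Points are single libraries and bars are exact Poisson 95% intervals of the read count, which cover counting error only. Stat2, Stat4 and Stat6 stand higher in spleen, and Stat6 reaches 79.2 RPKM there. Stat3 and Stat5b also stand higher in spleen, by less, and for each the bars of the libraries do not overlap. RPKM divides by library totals, without the TMM factors used for the ratios in the text.

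The order of the levels differed between the libraries. Levels of different genes are compared here in the deposited RPKM, which divides reads by gene length and by the reads of the library. In bone marrow Stat3 came first at 58.5 RPKM, then Stat6 at 47.4, Stat5b at 29.6, Stat5a at 23.3, Stat4 at 17.1 and Stat2 at 14.8 RPKM. In spleen Stat6 came first at 79.2 RPKM, then Stat3 at 64.3, Stat2 at 41.7, Stat5b at 33.2, Stat4 at 29.9 and Stat5a at 19.9 RPKM. Stat2 thus moved from the lowest place to the third, and Stat5a from the fourth to the lowest. Every neighbour in both orders differed by more than its counting interval, and the closest were Stat5b over Stat4 in spleen, with a ratio of 1.11 (1.02 to 1.22), and Stat4 over Stat2 in bone marrow, with 1.16 (1.03 to 1.31). The spread between animals is unknown, so these narrow steps rest on counting error alone. The highest of the 6 levels was 3.97 times the lowest in bone marrow and 3.99 times in spleen. The genes were expressed above most others: the share of measured genes with a lower RPKM ran from 58.6% for Stat2 to 89.5% for Stat3 in bone marrow, and from 66.2% for Stat5a to 93.1% for Stat6 in spleen.

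Stat2 (Entrez gene 20847, chromosome 10) joins Irf9 and a further STAT protein in the complex that type I interferon sends to interferon-stimulated genes. It had 625 reads in bone marrow against 1516 in spleen. That was 66.4 CPM and 179 CPM, or 14.8 and 41.7 RPKM, with reads over 97.7% and 98.5% of its length. The spleen level was 2.70-fold higher (2.46 to 2.97), and 8.37% of measured genes had a ratio further towards spleen. Irf9, its DNA-binding partner, was at 71.1 CPM in bone marrow against 164 CPM in spleen, 2.30-fold higher (2.10 to 2.53). The genes nearest to Stat2 in level over the 2 libraries were Irf4, a transcription factor of lymphocytes and macrophages that also stands among the Stat6 targets below, at 66.2 and 175 CPM, and Bach2, a repressor of lymphocytes, at 68.7 and 177 CPM. Their distances on the log2(CPM + 1) scale were 0.03 and 0.05.

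The 250 bases before each annotated start of the STAT genes were searched for letters that STAT proteins or their complexes are known to bind, in the RefSeq promoters of build GRCm38.p6, which gave 9 starts for the 6 genes. The interferon-stimulated response element was searched as TTTC, any 2 bases and TTTC on either strand, and was present in 2.98% of all 32851 promoters of that length. It was found before the start of Stat2 and before the second start of Stat4. The stretch of Stat2 is shown because it was the gene past 2-fold, with 30 bases at chr10:128270272-128270301 on the plus strand, 226 to 197 bases before the start. The first run of capitals marks the response element, and the second marks TTC, any 4 bases and GAA, a spacing that Stat6 is known to bind, present in 5.85% of all promoters and in none of the other STAT promoters. The matches do not overlap.
Stat2: ctggTTTCAGTTTCctTTCCCTAGAActca
The general STAT site, searched as TTC, any 3 bases and GAA, which reads the same on both strands, was in none of the 9 STAT promoters and in 7.02% of all. A match describes letters in this window and shows no binding.

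Stat4 (chromosome 1), which carries IL-12 signals in T helper and natural killer cells, had 491 reads in bone marrow against 737 in spleen. That was 52.2 and 87.1 CPM, or 17.1 and 29.9 RPKM, with 85.9% and 85.8% of its length covered. The spleen level was 1.67-fold higher (1.49 to 1.88), inside the 2-fold limit. Its nearest genes over the 2 libraries were Nipal3, at 50.9 and 86.9 CPM, and Zfyve26, at 52.1 and 89.5 CPM. In the GENCODE vM21 annotation a same-strand gene model, Gm28177, overlaps 26.7% of the exon bases of Stat4 and holds 28.6% of the 50-base words of its longest coding transcript, so the count of Stat4 is uncertain if the annotation used by the authors held such a model. The second start of Stat4, at chr1:52007990-52008239 on the plus strand, is shown because it held the response element (capitals), 97 to 88 bases before the start.
Stat4: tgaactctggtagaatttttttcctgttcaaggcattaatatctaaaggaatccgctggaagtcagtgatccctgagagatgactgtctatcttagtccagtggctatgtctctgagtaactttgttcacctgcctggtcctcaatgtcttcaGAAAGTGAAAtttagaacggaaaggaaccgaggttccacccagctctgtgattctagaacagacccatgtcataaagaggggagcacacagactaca

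Stat6 (chromosome 10), the mediator of IL-4 and IL-13 signals and of alternative macrophage activation, had 1736 reads in bone marrow against 2492 in spleen. That was 185 and 295 CPM, or 47.4 and 79.2 RPKM, with 98.8% and 98.7% of its length covered. Its exons overlap those of Nab2 by 40 bases on the opposite strand, and whether the counting used strand is not stated. The spleen level was 1.60-fold higher (1.50 to 1.70), again inside 2-fold. Its ratio was close to that of Stat4, and Stat4 relative to Stat6 was 0.361 in bone marrow against 0.377 in spleen. The interval of that change, 0.917 to 1.19, included 1. The nearest genes to Stat6 were Ctsz, a lysosomal cathepsin, at 186 and 300.2 CPM, and Bptf, a chromatin remodeller subunit, at 182 and 285 CPM.

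Stat3, which carries signals of IL-6 and IL-10 and of G-CSF, had 2527 reads in bone marrow against 2386 in spleen. That was 269 and 282 CPM, or 58.5 and 64.3 RPKM, with 99.1% and 99.4% of its length covered. The libraries were nearly level, with a spleen to bone marrow ratio of 1.05 (0.992 to 1.11) that included equal levels. Stat5b, the paralog that carries growth hormone as well as cytokine signals, had 1495 and 1443 reads. That was 159 and 171 CPM, or 29.6 and 33.2 RPKM, with 90.9% and 92.1% of its length covered. Its ratio of 1.07 (0.998 to 1.15) also included equal levels. With library totals in place of TMM scaling, both ratios were slightly larger and their intervals left out equal levels, at 1.10 (1.04 to 1.16) for Stat3 and 1.12 (1.05 to 1.21) for Stat5b. Stat3 relative to Stat5b was 1.98 in bone marrow against 1.94 in spleen, and the interval of that change, 0.892 to 1.07, included 1. Genes nearest to Stat3 were Cd164, a sialomucin, at 274 and 283 CPM, and Ranbp2, a nuclear pore protein, at 260 and 280 CPM, and those nearest to Stat5b were Usp25, a deubiquitinase, and Wdr82.

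Stat5a, which responds to GM-CSF, IL-3 and prolactin, was the only one of the 6 with a higher level in bone marrow. It had 878 reads in bone marrow against 642 in spleen. That was 93.3 and 75.9 CPM, or 23.3 and 19.9 RPKM, with 84.3% and 83.8% of its length covered. The bone marrow level was 1.23-fold higher (1.11 to 1.36), and 46 other genes lay within 0.1 of Stat5a on the log2(CPM + 1) plane of the libraries, Rbm10 and Gps1 the nearest. Stat5a relative to its paralog Stat5b was 0.789 (0.725 to 0.858) in bone marrow and 0.598 (0.544 to 0.657) in spleen, so Stat5b was the more abundant of the paralogs in both. That ratio was 1.32 times larger in bone marrow (1.16 to 1.50). The paralogs are similar enough to affect counting: 16.4% of the 50-base words of the longest coding Stat5a transcript in GENCODE vM21, and 11.8% of those of Stat5b, occur in another gene, for Stat5b in Stat5a alone. A read of that length within such a stretch has more than 1 possible origin, and the sources used here do not give the read length. Stat2 and Stat6 shared 0 such words with any other gene and Stat3 shared 0.384%, with Stat5a. Stat5b, Stat5a and Stat3 lie side by side on chromosome 11, and Stat3 and Stat5a overlap tail to tail by 72 exon bases on opposite strands.

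**Figure D2:**
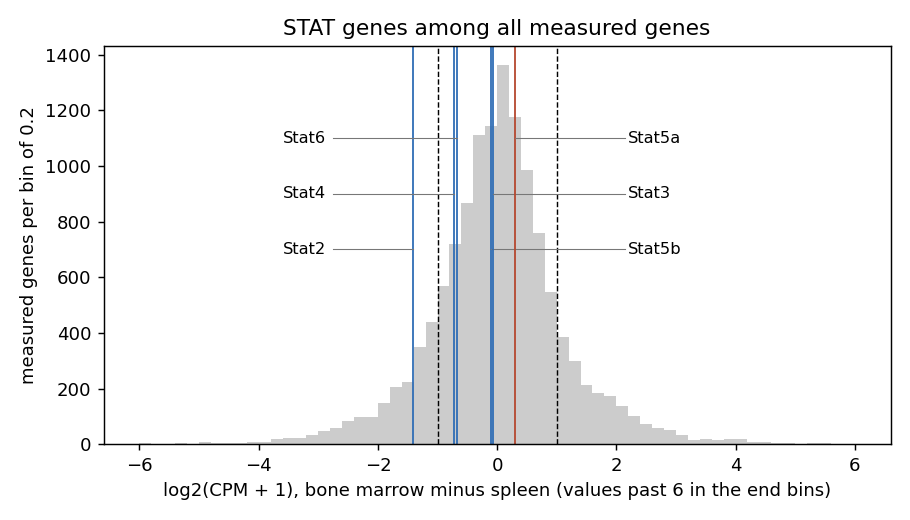
Distribution of log2(CPM + 1), bone marrow minus spleen, over the 12970 measured genes (grey bars, values past 6 in the end bins), with the 6 STAT genes as vertical lines, blue where higher in spleen and red where higher in bone marrow. Dashed lines mark 2-fold, and Stat2 at -1.42 is the only STAT gene outside them.

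Because ratios between genes of 1 library do not depend on scaling between libraries, each pair of STAT genes was also compared. Of 15 pairs, 13 had a ratio that differed between the libraries beyond counting error. The 2 that did not were Stat3 with Stat5b and Stat4 with Stat6. Pairs of other genes were not compared, so the count of 13 has no background and is not a trait of the STAT genes. The 15 pairs also share the same 6 counts per library and are not independent. All 5 pairs with Stat2 differed. Stat2 relative to Stat5a was 0.632 in bone marrow against 2.10 in spleen, a 3.32-fold change (2.88 to 3.82) and the largest of the 15. Stat2 relative to Stat3 was 0.252 and 0.648, a 2.57-fold change (2.30 to 2.87), and relative to Stat6 it was 0.311 and 0.526, a 1.69-fold change (1.51 to 1.89). The balance between Stat3 and Stat6 turned over, with Stat3 1.23 times Stat6 in bone marrow (1.16 to 1.31) and Stat6 1.23 times Stat3 in spleen (1.16 to 1.30). As shares of the summed RPKM of the 6 genes, Stat2 held 7.74% in bone marrow against 15.5% in spleen. Stat3 held 30.7% and 24.0%, Stat6 24.9% and 29.5%, and Stat4 8.98% and 11.2%. Stat5a held 12.2% and 7.41%, and Stat5b 15.5% and 12.4%.

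**Figure D3:**
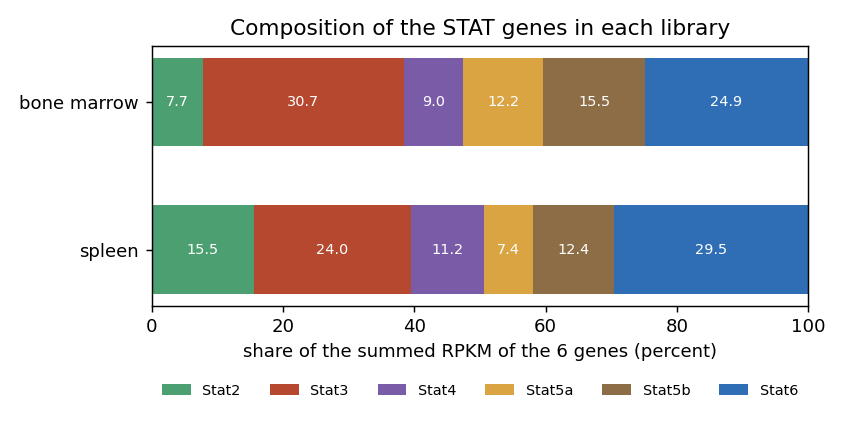
Share of the summed RPKM of the 6 STAT genes held by each gene (horizontal axis, percent) in the bone marrow library and the spleen library. Stat2 holds 7.7% in bone marrow against 15.5% in spleen, and Stat3, Stat5a and Stat5b hold smaller shares in spleen.

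The sorted populations held transcripts of other cells, and these differed between the libraries in the same direction as Stat2, Stat4 and Stat6 or against it. All 19 T cell markers passed 2-fold towards spleen, their sum being 320 CPM in bone marrow against 2431 CPM in spleen, and so did all 15 B cell markers, with 744 and 6473 CPM. Of 11 measured markers of conventional dendritic cells 9 were higher in spleen (195 and 1245 CPM), and of 11 natural killer cell markers 5 were higher in spleen against 1 in bone marrow (520 and 668 CPM). None of these markers had 0 reads in either library. Of 17 measured neutrophil and granulocyte precursor markers 16 were higher in bone marrow, with 48804 and 2316 CPM, while Ly6g had 0 reads in both. Stem and progenitor markers were higher in bone marrow in 9 of 10 cases (1919 and 279 CPM), with Mecom at 0 reads in spleen, and of 10 erythroid markers 2 were higher in bone marrow, 1 in spleen and 7 in neither (356 and 212 CPM). Macrophage markers were found in both libraries, all 15 of them, 7 higher in spleen against 0 in bone marrow (627 and 1287 CPM). Lymphocytes, dendritic cells and granulocytes also express STAT genes. Leukaemia cells of these mice may have been among the sorted cells too, and no marker list here is specific to them. The part of any of these other cells, leukaemia cells included, in the STAT levels was not tested. In bulk samples fewer cells of a type and less RNA per cell cannot be told apart. Of 12 housekeeping genes 11 were inside the 2-fold limit, and their median was 0.28 on the log2 scale. Beside all these counts, 14.6% of measured genes passed 2-fold towards spleen and 14.1% towards bone marrow.

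Among the receptors that feed the STAT proteins, 33 of 35 listed genes were measured, 12 at least 2-fold higher in spleen, 6 in bone marrow and 15 within 2-fold. Their median log2 ratio was -0.65, beside 0.03 for all measured genes. For these counts and those of the lists below, 14.6% of all measured genes passed 2-fold towards spleen and 14.1% towards bone marrow. Receptors upstream of Stat3 had 5 of 11 measured members higher in spleen against 2 in bone marrow. Il21r, the IL-21 receptor of lymphocytes, was at 37.1 CPM in bone marrow against 239 CPM in spleen, and Il6st, the shared gp130 chain, at 28.6 and 162 CPM. Il27ra was at 28.6 and 136 CPM, and Il10ra, which binds IL-10, at 93.0 and 401 CPM. These 4 receptors were 4.31-fold to 6.43-fold higher in spleen. The 2 that passed 2-fold towards bone marrow were Csf3r, the G-CSF receptor and also a granulocyte marker here, at 258 and 63.1 CPM, and Il11ra1, the IL-11 receptor chain, at 14.4 and 5.44 CPM. Stat3 itself was nearly level between the libraries.

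Receptors upstream of Stat5 went both ways, with 5 of 15 higher in spleen against 3 in bone marrow. Il2rg, the common gamma chain, was at 103 CPM in bone marrow against 374 CPM in spleen, and Il5ra at 5.42 and 23.6 CPM. For Stat2, Ifnar1, a chain of the type I interferon receptor, was 2.22-fold higher in spleen (2.04 to 2.41), at 93.0 and 206 CPM. The other chain, Ifnar2, was level at 99.4 and 100.4 CPM, and Ifnlr1, the type III receptor chain, was at 15.1 CPM in bone marrow against 4.14 in spleen. For Stat6, Il4ra, the IL-4 receptor chain, was at 116 and 280 CPM, 2.40-fold higher in spleen (2.23 to 2.58), and Il13ra1 at 17.2 and 24.5 CPM. The chains of the IL-12 receptor upstream of Stat4 were both low and within 2-fold, Il12rb1 at 12.9 and 16.3 CPM and Il12rb2 at 11.4 and 20.1 CPM.

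Ligands were scarce. Of 24 listed cytokines that activate STAT proteins, 10 were measured, 4 higher in bone marrow against 2 in spleen. Over all measured genes those shares were 14.1% and 14.6%, and 10 genes are few to set beside them. Of the 24, 8 had 0 reads in bone marrow against 9 in spleen. A count of 0 allows up to 3 reads, so absence of these ligands could not be shown at this depth. Osm, which encodes oncostatin M and is itself induced by Stat5, was the most abundant listed ligand in bone marrow by RPKM, at 25.3 RPKM, while in spleen it was at 7.30 RPKM, below Il12a at 7.99 RPKM. Osm was at 49.4 CPM in bone marrow against 13.6 CPM in spleen, 3.64-fold higher in bone marrow (2.96 to 4.50). Il15 was at 11.0 and 4.49 CPM, and Il12a, a subunit of the Stat4-activating IL-12, was level at 10.3 and 10.2 CPM. The other IL-12 subunit, Il12b, was not level, with 4 reads in bone marrow against 44 in spleen. It was 12.2-fold higher in spleen, with a wide interval of 4.45 to 46.9.

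The kinases and inhibitors of the pathway lay mostly within 2-fold, as did most measured genes, but their medians lay towards spleen. The median log2 ratio was -0.86 for Janus kinases, -0.83 for SOCS genes and -0.50 for the other inhibitors. Over all measured genes the median was 0.03, with 14.6% past 2-fold towards spleen and 14.1% towards bone marrow. Jak2, which serves GM-CSF and interferon gamma receptors, was at 146 CPM in bone marrow against 297 CPM in spleen, and was the only 1 of 4 Janus kinases past 2-fold, by 2.03-fold (1.90 to 2.17). Of the 8 SOCS genes, which encode feedback inhibitors, Socs1 alone was past 2-fold, at 8.40 and 21.4 CPM. Among 12 other inhibitors 3 were higher in spleen against 0 in bone marrow. They were Ptprc, the CD45 phosphatase of all leukocytes, at 645 and 2163 CPM, Usp18, which restrains type I interferon signalling, at 14.0 and 41.7 CPM, and Sh2b3, an adaptor that restrains Jak2, at 73.3 and 162 CPM. Of 8 partners and importins 2 were higher in spleen, Irf9 and the coactivator Crebbp, at 56.8 and 136 CPM. The importin Kpnb1 was at 671 CPM in bone marrow against 379 in spleen, within 2-fold.

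Genes known to be controlled by STAT proteins were taken in 5 lists, and their counts stand beside 14.6% of all measured genes past 2-fold towards spleen and 14.1% towards bone marrow. Of 22 Stat2 targets 9 passed 2-fold towards spleen and 0 towards bone marrow, and the median was -0.82. Irf9 and Usp18, described above, are among these targets too. Mx1, an antiviral GTPase, was at 14.4 CPM in bone marrow against 51.8 CPM in spleen, 3.61-fold higher (2.97 to 4.41). Bst2, the most abundant of them by RPKM, was at 60.5 and 71.4 CPM, within 2-fold. Of 16 measured Stat3 targets 5 were higher in spleen against 5 in bone marrow (median -0.61). Ccnd1, a cyclin, was at 22.5 and 255 CPM, and the neutrophil granule gene Lcn2 lay furthest towards bone marrow, at a log2 ratio of 4.23, towards the library with more granulocyte marker reads, and their part in that ratio was not tested.

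Of 11 Stat4 targets 3 were higher in spleen against 0 in bone marrow (median -0.28). They were Prf1, the perforin of cytotoxic cells, at 10.8 and 35.8 CPM, Tbx21, the T helper and natural killer regulator, at 15.3 and 42.6 CPM, and Il18r1 at 25.9 and 66.6 CPM. Spleen was also the library with more T cell marker reads (320 and 2431 CPM), and their part in these ratios was not tested. Without Prf1, Tbx21 and Gzmb, also natural killer cell markers here, the median of the Stat4 targets was -0.06. Of 13 Stat5 targets 3 were higher in bone marrow against 2 in spleen (median -0.12), counts near those shares of all genes. Ccnd3, a cyclin of dividing blood cells, was at 520 CPM in bone marrow against 164 CPM in spleen, and Id1 at 13.3 and 2.48 CPM, while Foxp3, the regulatory T cell factor, lay at -3.43 towards spleen. Without Foxp3, the 1 member that is also a T cell marker here, the median of the Stat5 targets was 0.10.

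Stat6 targets went both ways. Of 14 measured, 8 passed 2-fold towards spleen and 4 towards bone marrow, while 2 did neither (median -1.30). Without Fcer2a, Mrc1, Ccl17 and Ccl22, which are also cell markers here, the median of the Stat6 targets was -0.05. Fcer2a, also a B cell marker, lay at -5.86 towards spleen, from 42 reads in bone marrow against 2684 in spleen. In the opposite direction, Alox15, a lipoxygenase of resident macrophages and eosinophils, had 162 and 9 reads, and Chil3, which granulocyte precursors also make, lay at 4.06 towards bone marrow. The targets were taken from general knowledge of other cells, and members of 4 of the 5 target lists are also cell markers here, so that the counts describe the lists and not the activity of a STAT protein.

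**Figure D4:**
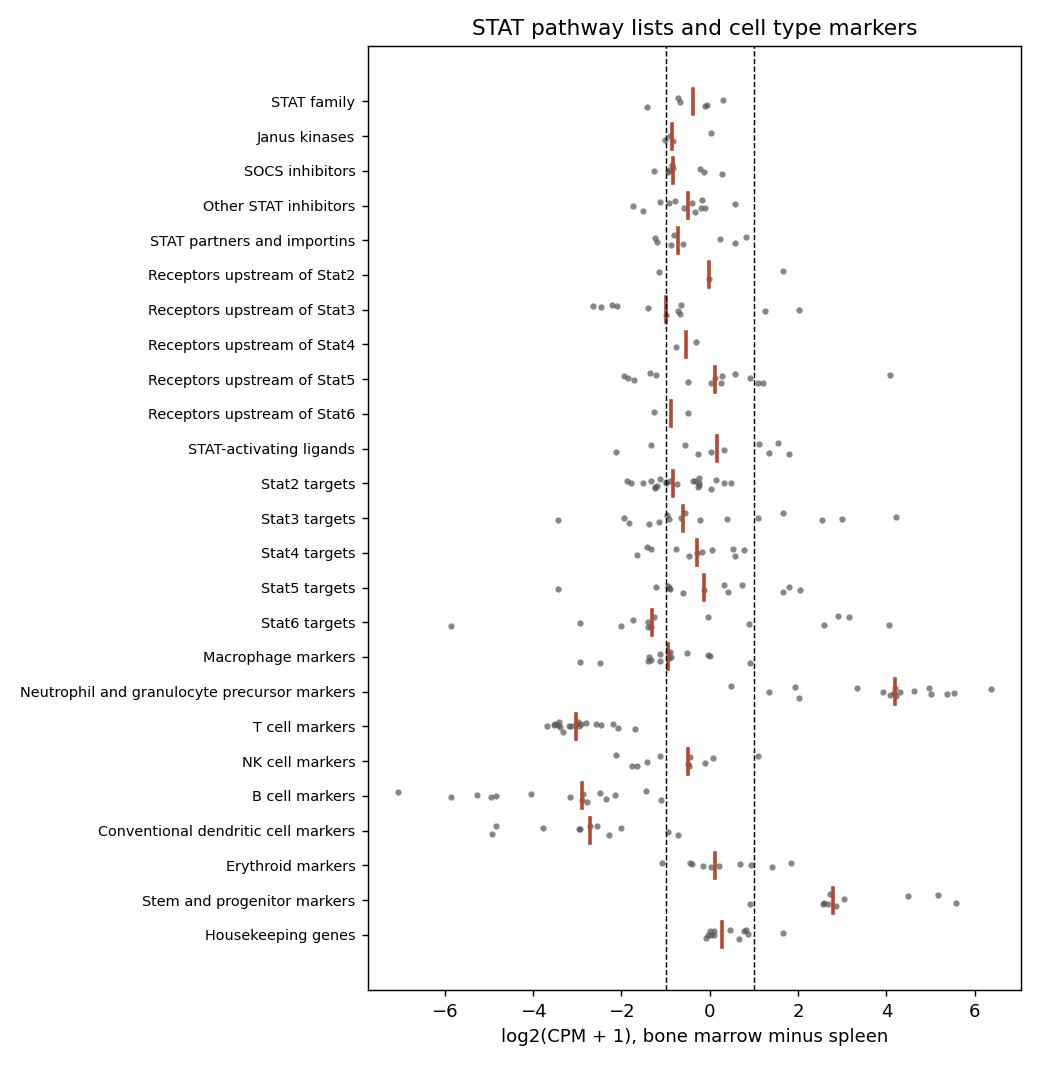
log2(CPM + 1), bone marrow minus spleen (horizontal axis), for every measured gene of each list (grey points, 1 gene each, spread vertically for legibility) with the list median (red bar) and dashed lines at 2-fold. The STAT genes lie between -1.42 and 0.29, T cell and B cell markers lie to the left of -1 and granulocyte precursor markers to the right of 0.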

How the data were processed

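The authors deposited 1 gene table per library with, per the file headers, a count of uniquely placed reads per Entrez gene, a gene length, the percent of that length covered and an RPKM value. Counts were whole numbers that summed to the totals in the headers, 9625763 for bone marrow and 8264712 for spleen. RPKM was recomputed within 6.7e-06 percent. The sources used here do not name the aligner, counting program, genome build, annotation or read length. Tables were joined on the Entrez identifier, and a gene absent from a table was given 0 reads.

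TMM factors of 0.977 and 1.02 came from edgeR 4.0.16 in R 4.3.3. Fold intervals are exact conditional binomial (Clopper-Pearson) 95% intervals. No p-value was computed because each tissue had 1 library. The alternatives tried were library totals, size factors of DESeq2 1.42.0, TMM factors without markers of other cells, pseudocounts of 0.1 and 5, the deposited RPKM, a 4-fold rule, no floor and a floor of 10 CPM. The intervals were tried on simulated data that held counting error alone. That simulation cannot show how they perform with duplicated reads or with spread between animals.

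The STAT genes and the 25 lists (277 symbols, all matched) were chosen with earlier results of these data known. From each list the text names members out of the 3 with the largest ratio among those with at least 10 CPM, and the most abundant by RPKM. For each STAT gene it names the 2 nearest in level, leaving out provisional names. Ly6g, Mecom, Csf3r, Il11ra1 and the members shared with marker lists were named after their values were seen, to complete a count. Il12b was named in the same way, to stand beside Il12a. Promoters and gene names came from RefSeq, build GRCm38.p6, and transcripts from GENCODE vM21.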

Additional observations from a re-analysis of the deposited data

How the results depend on the processing

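All 6 STAT genes kept their direction under the scalings, pseudocounts and deposited RPKM tried. Over these alternatives the log2 ratio, bone marrow minus spleen, ran from -1.48 to -1.37 for Stat2, from -0.79 to -0.69 for Stat4, from -0.74 to -0.66 for Stat6, from -0.17 to -0.09 for Stat5b, from -0.14 to -0.06 for Stat3 and from 0.22 to 0.31 for Stat5a. The family median ran from -0.45 to -0.38. Under a 4-fold rule 0 STAT genes were called, beside 530 genes in spleen and 573 in bone marrow over all measured genes (1898 and 1832 at 2-fold). A pseudocount of 5 left 1210 genes called in spleen and moved the medians of T cell markers to -2.57 and of stem and progenitor markers to 2.38. Without division by length, shares of the summed reads in bone marrow were 32.6% for Stat3, 6.33% for Stat4, 11.3% for Stat5a, 19.3% for Stat5b and 22.4% for Stat6, and in spleen 16.4% for Stat2, 25.9% for Stat3, 8.00% for Stat4, 15.7% for Stat5b and 27.0% for Stat6. Those shares differ because the genes differ in length. Of 188 recomputed values 172 stayed within their interval or within 1.5 times the count, and 16 moved. For a median that interval was the spread among the genes of the list, for the STAT genes their whole range of -1.42 to 0.29. A median could thus shift widely and still count as staying, so the 172 do not show that medians were stable. The Stat6 target median counted as staying at -0.05 without shared markers (-1.30 with them), as did the list medians given next. With a floor of 10 CPM the ligand median was 1.12 (0.17 with the floor of 1 CPM) and the Stat5 target median -0.37 (-0.12), and the median of the Stat3 targets was -0.33 with a pseudocount of 5 (-0.61). Leaving out members that are also markers turned the Stat5 target median to 0.10. The cause was not tested. No paired analysis was possible because each tissue had 1 library, and no replicate could be left out.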
